A study of Mus musculus with 4 samples.

Results

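Clusters 3 and 4 are the isthmus clusters of the deposited annotation of mouse stomach epithelium, and they were compared with each other within the Epcam+ libraries. The members are the 829 Epcam+ cells that the authors' annotation puts in either cluster, 463 in cluster 3 and 366 in cluster 4, among 4449 cells in the series. The cells came from 14-week-old female Rosa26iH2b-GFP mice. These carry an H2b-GFP gene under a tetracycline-responsive promoter and, at the same Rosa26 locus, the Tet-on transactivator under the EF1a promoter, and they received doxycycline for 4 weeks followed by a chase of 6 weeks. Viable stomach cells negative for Cd45 and Cd31 were sorted as Epcam+ cells, and the comparison rests on 2 single-cell libraries of 3′ RNA ends made in droplets, Epcam+ 1 and Epcam+ 2. The 2 further libraries, GFP+ 1 and GFP+ 2, were sorted for H2b-GFP and hold 27 cells of cluster 3 and 19 of cluster 4, which enter only where they are named.

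The isthmus is the zone of the gastric unit where progenitors divide, and from there pit cells form towards the surface while neck cells form towards the base. A dividing cell first loads the Mcm helicase onto origins and copies its DNA in S phase, and then builds a spindle and separates its chromosomes in mitosis. E2F factors drive the genes of the first step, and genes of the second step are commonly switched on later through CCAAT boxes and the CHR element. These 2 programs are therefore the usual way to read the phase of a dividing cell from its RNA.

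Unique molecular identifiers (UMIs) were summed per library and cluster and are given as CPM, counts scaled to a library of 1000000, after TMM scaling, unless they are called unscaled. Log2 differences are cluster 3 over cluster 4 from edgeR's quasi-likelihood test (two-sided, library as a block, Benjamini-Hochberg adjusted p below 0.05 over 11472 genes). The sums held 9423530 and 8960237 UMIs in cluster 3, from 233 and 230 cells, and 9090225 and 7739433 UMIs in cluster 4, from 193 and 173 cells, for Epcam+ 1 and Epcam+ 2 in this order. Cells of cluster 3 had medians of 41443 and 37019 UMIs and a mitochondrial share of 6.08% and 6.84%, and cells of cluster 4 had 46175 and 44665 UMIs and 5.68% and 6.01%. Whether the libraries came from separate animals is not stated, so a p reads the spread of libraries that may be technical repeats. Since the clusters were made from the expression of these same cells, the p-values describe how far the clusters stand apart against that spread and are no independent test.

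Cluster 3 made up a similar part of the isthmus cells in both libraries. Its share among the cells of clusters 3 and 4 was 54.7% (233 of 426 cells, 95% Wilson interval 49.9% to 59.4%) in Epcam+ 1 and 57.1% (230 of 403 cells, 52.2% to 61.8%) in Epcam+ 2. The GFP+ libraries gave 60.7% of 28 cells (42.4% to 76.4%) and 55.6% of 18 cells (33.7% to 75.4%). All 4 intervals overlap, and they cover counting error only.

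The labelled isthmus markers were present in every sum of both clusters, but at different levels. Mki67, a marker of proliferating cells (chromosome 7, 135689784 to 135716361, GENCODE vM21 on GRCm38), had 109 and 132 CPM in cluster 3, against 548 and 583 CPM in cluster 4 (log2 difference -2.24 ± 0.041 SE, edgeR adjusted p = 2.7e-32). Pcna, the sliding clamp of the replication fork (chromosome 2, 132249162 to 132253314), had 354 and 381 CPM in cluster 3, against 142 and 171 CPM in cluster 4 (1.23 ± 0.04, adjusted p = 2.6e-24). Thus neither pair of sums overlaps, which also held for 61.1% of all genes tested, and the 2 markers stand in opposite order. Bmi1, a gene reported for isthmus stem cells, had 18.3 and 19.9 CPM in cluster 3 and 21.9 and 23.2 CPM in cluster 4, a log2 difference of -0.24 that did not pass (edgeR adjusted p = 0.11), though it did on library totals without scaling factors (-0.28, adjusted p = 0.0473).

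Of the 11472 genes tested, 2071 (18.1%) were higher and 2033 (17.7%) were lower in cluster 3, together 35.8%, and a log2 difference of at least 1 was reached by 290 (2.53%) and 333 (2.9%). Without the library as a block the counts were 1180 and 1156, and DESeq2 called 427 (3.72%) and 513 (4.47%). All 940 genes that DESeq2 called were also called by edgeR with the same sign. In a fit over 9 clusters, 1261 genes were higher and 1070 lower. In that fit, 341 and 372 were called without Epcam+ 1, and 420 and 381 without Epcam+ 2.

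**Figure D1:**
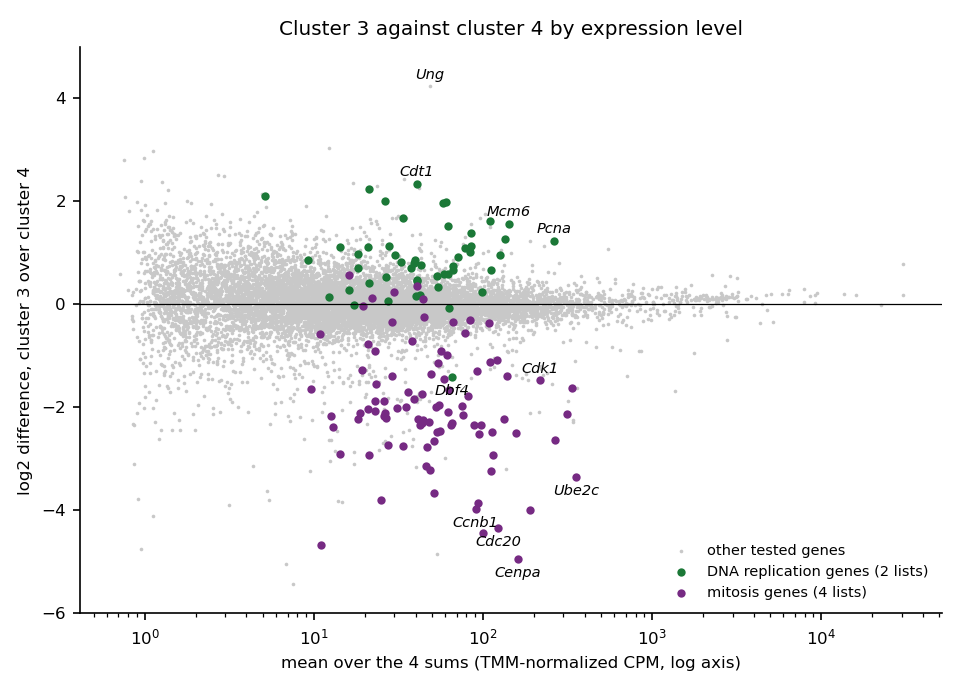
Log2 difference of cluster 3 over cluster 4 (y axis) against the mean of the 4 sums in TMM-normalized CPM (x axis, log scale) for the tested genes, with the 50 genes of the 2 replication lists in green and the 91 genes of the 4 mitosis lists in purple. Most replication genes lie above 0 and most mitosis genes lie below it, with Cenpa at -4.94 and Ung at 4.24 (1 gene lies beyond the lower end of the axis).

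Genes that load and fire replication origins were higher in cluster 3. Of 26 tested members of this list 21 rose and 1 fell, against 18.1% of all genes higher, with a median log2 difference of 0.92 beside 0.0078 over all genes tested. Cdt1, which loads the Mcm helicase (chromosome 8, 122568015 to 122573554), had 65.6 and 70.9 CPM in cluster 3, against 12.9 and 13.9 CPM in cluster 4 (log2 difference 2.35 ± 0.091, edgeR adjusted p = 4.9e-22). Cdc6, its partner in loading, had 45.9 and 38.8 CPM in cluster 3 and 10.4 and 10.9 CPM in cluster 4 (2.00). All 6 subunits of the Mcm2 to Mcm7 helicase rose, with log2 differences of 1.97 for Mcm2, 1.63 for Mcm3, 1.99 for Mcm4, 1.39 for Mcm5, 1.56 for Mcm6 and 1.27 for Mcm7. Mcm6 (chromosome 1, 128331590 to 128359664) averaged 213 ± 0.505 CPM in cluster 3, against 72.3 ± 4.23 CPM in cluster 4 (SD over 2 libraries). Gmnn, the inhibitor of Cdt1, was higher as well (0.66), as was Timeless, which protects the fork (2.25). The single member that fell was Dbf4, the activator of the Cdc7 kinase, with 37.1 and 35.4 CPM in cluster 3, against 93.7 and 98.4 CPM in cluster 4 (-1.40; named after its value was seen).

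The genes of the fork followed the same order. Of 24 tested members 21 rose and none fell in cluster 3 by edgeR (0 of 24, also 0 at an unadjusted p below 0.05 and 0 with DESeq2), with a median log2 difference of 0.75. Rpa2, a subunit of the protein that coats single-stranded DNA, differed by 1.67, and Rfc3 and Rfc1, subunits of the clamp loader, by 1.53 and 1.10. Pole2, a subunit of the leading-strand polymerase, differed by 1.13, and the DNA ligase Lig1 by 0.97. Rfc3 had 92.4 and 92.8 CPM in cluster 3, against 30.3 and 34.2 CPM in cluster 4.

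Nucleotide supply was split. Of 19 tested members 13 rose and 3 fell, with a median of 0.27, beside 18.1% higher and 17.7% lower of all genes tested. The purine synthesis gene Paics rose by 1.04 and the dUTPase gene Dut by 0.66. The 3 that fell, named after their values were seen, make deoxynucleotides. Tk1, thymidine kinase, had 85.4 and 95.6 CPM in cluster 3, against 121 and 132 CPM in cluster 4 (-0.48). Tyms (-0.21) and Rrm2 (-0.17) differed less, and both lost the call with DESeq2 and without the block.

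Factors that restore chromatin behind the fork were higher in cluster 3 for 8 of 12 tested members, while 3 fell (median 0.87). Of all genes tested 18.1% were higher and 17.7% lower. Hells, a chromatin remodeller, had 163 and 154 CPM in cluster 3, against 45.4 and 49.2 CPM in cluster 4 (1.75). Uhrf1, which guides maintenance of DNA methylation, differed by 1.69, and Chaf1b, a subunit of the histone chaperone CAF-1, by 1.68. Slbp, the protein that binds the stem-loop of replication-dependent histone mRNAs, differed by 1.06 and the histone chaperone Nasp by 0.99. The members that fell changed little, with -0.25 for Asf1b, -0.17 for Rbbp7 and -0.12 for Dek, and all 3 calls were lost with DESeq2 (Asf1b was named after its value was seen).

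Among DNA repair and damage signalling genes 10 of 20 rose and 3 fell (median 0.37), beside 18.1% higher and 17.7% lower of all genes tested. Ung, the uracil DNA glycosylase (chromosome 5, 114130386 to 114139323), had the highest log2 difference of all genes tested, 4.24 ± 0.11 (edgeR adjusted p = 2.7e-27). It had 90.9 and 93.7 CPM in cluster 3, against 4.01 and 5.88 CPM in cluster 4, which is an 18.9-fold higher level. The pit cells of cluster 2 had 10.99 and 9.67 CPM of Ung, unscaled, and the neck cells of cluster 0 had 25.6 and 22.8 CPM, so that cluster 4 was the lowest of these 4 clusters in both libraries. Alkbh2, another DNA repair gene, lies beside Ung on the opposite strand (chromosome 5, 114123926 to 114128218) and had 22.2 and 21.6 CPM in cluster 3, against 2.17 and 3.20 CPM in cluster 4 (3.04; named after its value was seen). The mismatch repair gene Msh6 differed by 1.72 and the checkpoint kinase gene Chek1 by 1.69. Fancd2, Fanci and Chek2, also named after their values were seen, were lower, with -1.01, -0.51 and -0.42, and all 3 calls were lost with DESeq2.

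E2F factors and their G1/S partners were higher in cluster 3 for 10 of 13 tested members in edgeR and for 8 with DESeq2 (median 0.69). With either tool 0 were lower, and 1 was lower at an unadjusted p below 0.05 in edgeR. E2f1 had 40.4 and 38.03 CPM in cluster 3, against 8.78 and 7.04 CPM in cluster 4 (2.30 ± 0.12, edgeR adjusted p = 9.6e-18). Ccne2 and Ccne1, the E-type cyclins of S-phase entry, differed by 2.22 and 1.67, and their kinase partner Cdk2 by 0.69. The 3 further genes outside these lists among the 12 largest rises at 50 CPM or more were Slfn9, a Schlafen family gene (1.57), Ppp2r1b, a scaffold subunit of protein phosphatase 2A (1.504), and 2210404E10Rik (1.31). All 12 lay higher in both libraries of cluster 3 than in both of cluster 4. They were picked as the largest rises, and the sums of 61.1% of all genes tested did not overlap.

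Since replication genes moved together, their promoters were searched for E2F letters. RefSeq promoter windows of GRCm38.p6, from 250 bases before to 50 bases after the start, were read on both strands for TTTGGCGC, TTTCCCGC, TTTCGCGC and TTTGCCGC, which can overlap each other. At least 1 of these was found in 17 of 49 promoters (34.7%) of the 2 replication lists, which cover 40 of their 50 genes, and in 8 of 14 promoters (57.1%) of the E2F and G1/S list. It was found in 4.09% of 11552 promoters of tested genes, in 2.26% of all 32851 promoters and in 4.76% of 84 promoters of the 4 mitosis lists described next. Not every list followed its direction, since the letters were in 0 of 20 promoters of the nucleotide supply list, where most members rose, and in 5 of 22 (22.7%) of the chromosome structure list, where most fell. A match of letters is a description and not a bound site. The 180 bases before the start are shown for Mcm6 (chr1:128359706-128359885, minus strand), with 3 matches of which 2 overlap, and for Rfc3 (chr5:151651209-151651388, minus strand), with 1 match 10 bases before the start, as 2 of the 12 largest rises. Capitals mark the E2F letters on either strand.
Mcm6: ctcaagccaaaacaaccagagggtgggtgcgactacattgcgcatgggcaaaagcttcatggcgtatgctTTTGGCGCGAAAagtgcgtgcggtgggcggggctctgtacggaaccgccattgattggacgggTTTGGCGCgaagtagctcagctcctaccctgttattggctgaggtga
Rfc3: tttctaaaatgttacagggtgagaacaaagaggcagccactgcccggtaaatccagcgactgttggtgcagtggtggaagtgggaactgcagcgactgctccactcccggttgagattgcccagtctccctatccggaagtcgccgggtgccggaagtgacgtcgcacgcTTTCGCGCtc

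Genes of mitosis were lower in cluster 3, and by more than replication genes were higher. Among mitotic cyclins, kinases and their regulators 19 of 21 tested members fell and 1 rose, with a median log2 difference of -2.08, against 17.7% of all genes lower. Ccnb1, the cyclin of mitotic entry (chromosome 13, 100778650 to 100786570), had 8.90 and 12.8 CPM in cluster 3, against 165 and 176 CPM in cluster 4 (-3.98 ± 0.086, edgeR adjusted p = 5e-30). Ccnb2 differed by -4.44, and the mitotic kinase genes Plk1 and Aurka by -3.67 and -3.13. Cdk1, the kinase partner of the B-type cyclins, averaged 116 ± 9.09 CPM in cluster 3, against 322 ± 24.4 CPM in cluster 4 (SD over 2 libraries; -1.48), and Ccna2 and Cks2 differed by -2.49 and -2.14. Mybl2, a transcription factor gene, was the 1 member that rose, by 0.58 with 18.0 and 20.7 CPM in cluster 3 and 12.0 and 13.9 CPM in cluster 4 (named after its value was seen; the call was lost with DESeq2).

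Every tested member of the spindle, kinesin and cytokinesis list, 29 of 29, fell in cluster 3, with log2 differences between -3.85 and -1.34 and a median of -2.34. Hmmr, a spindle assembly gene, had 11.3 and 12.98 CPM in cluster 3, against 173 and 176 CPM in cluster 4. Kif2c, a kinesin that depolymerizes microtubules, differed by -3.79, Aspm by -3.22, Nusap1 by -2.93 and Tpx2 by -2.52, all of which act at the spindle. Prc1 and Racgap1, which act in the central spindle and cytokinesis, differed by -2.51 and -2.33.

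At the centromere and kinetochore 23 of 27 members fell and 1 rose (median -1.69). Cenpa, the histone H3 variant of centromeres (chromosome 5, 30666777 to 30674830), had the largest fall at 50 CPM or more, with 10.6 and 9.56 CPM in cluster 3, against 302 and 320 CPM in cluster 4 (-4.94 ± 0.07, edgeR adjusted p = 1.8e-35). This is a 30.7-fold lower level in cluster 3. Cenpf and the kinetochore motor gene Cenpe differed by -3.997 and -3.24. Cenph, a constitutive centromere protein gene named after its value was seen, was higher by 0.36, with 42.8 and 49.1 CPM in cluster 3 and 34.5 and 37.1 CPM in cluster 4, and lost the call with DESeq2.

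All 14 members of the chromosomal passenger and anaphase promoting complexes fell (median -1.63). Cdc20, the activator that starts anaphase (chromosome 4, 118432901 to 118437352), had 11.8 and 11.4 CPM in cluster 3, against 231 and 240 CPM in cluster 4 (-4.34 ± 0.073, edgeR adjusted p = 2e-33). Ube2c, the ubiquitin-conjugating enzyme of that complex, had 61.6 and 64.6 CPM in cluster 3, against 635 and 659 CPM in cluster 4 (-3.36). Birc5, Cdca8 and Ube2s differed by -2.63, -2.22 and -1.62. At a mean of 50 CPM or more, the largest falls outside these lists were those of Cdkn3, a phosphatase that acts on cyclin-dependent kinases (-4.85, with 3.43 and 3.76 CPM in cluster 3, against 103 and 105 CPM in cluster 4), and of Cdca3 (-3.20) and Knstrn, a kinetochore-linked spindle gene (-2.99).

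**Figure D2:**
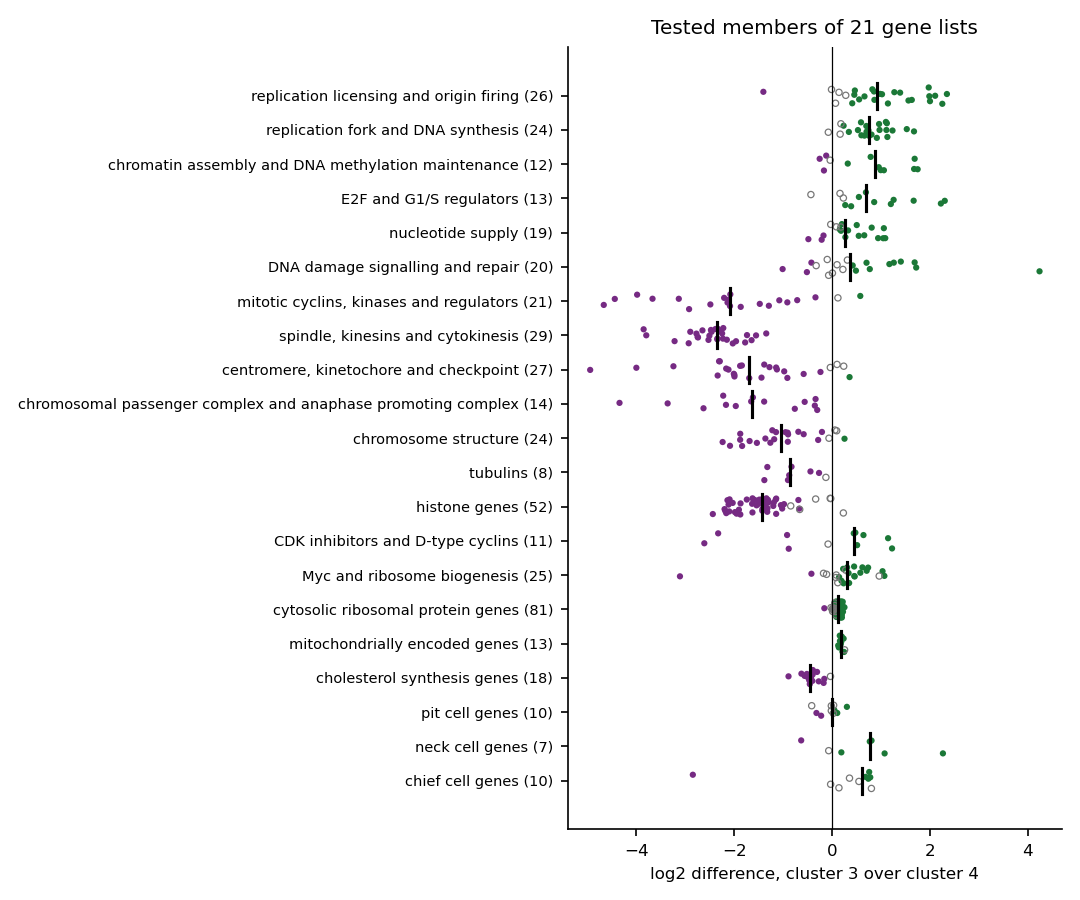
Log2 difference of cluster 3 over cluster 4 (x axis) of every tested member of 21 gene lists, with the number of members in brackets; filled green points passed the test as higher and filled purple points as lower, open points did not pass, and black bars are medians. Members of the spindle list all lie between -3.85 and -1.34, while the cytosolic ribosomal protein genes lie close to their median of 0.13.

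Promoters of the mitosis lists were searched in the same windows for the CHR letters TTTGAA on both strands. They were found in 48 of 84 promoters (57.1%) of the 4 lists and in 25 of 29 promoters (86.2%) of the spindle list. The same letters were in 17.9% of all promoters, in 12.1% of those of tested genes and in 16.3% of those of the replication lists. At least 2 CCAAT letters were in 44.0% of mitosis promoters, 28.6% of replication promoters and 14.7% of those of tested genes. These letters were not particular to mitosis lists. At least 2 CCAAT letters were in 9 of 15 promoters of the chromatin assembly list, where most members rose. They were also in 7 of 14 promoters of cholesterol synthesis genes, described below. The CHR letters were in 4 of 15 promoters of the chromatin assembly list and 6 of 25 of the origin licensing list. They were in 2 of 24 promoters of the fork list and 2 of 20 of the nucleotide supply list. The 180 bases before the start are shown for Cdc20 (chr4:118437344-118437523, minus strand), Ube2c (chr2:164769749-164769928, plus strand) and Cdk1 (chr10:69352913-69353092, minus strand), which stand for a large, a strongly expressed and a smaller fall. Capitals mark TTTGAA or its reverse complement, at 18 bases before the start in Cdc20, 29 in Ube2c, and 71 and 15 in Cdk1. The stretch of Cdk1 also holds the E2F letters TTTCGCGC, which are left in lower case here.
Cdc20: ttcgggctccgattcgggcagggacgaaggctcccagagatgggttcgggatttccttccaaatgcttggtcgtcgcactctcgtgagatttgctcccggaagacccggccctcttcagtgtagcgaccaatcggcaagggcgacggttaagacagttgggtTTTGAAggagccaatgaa
Ube2c: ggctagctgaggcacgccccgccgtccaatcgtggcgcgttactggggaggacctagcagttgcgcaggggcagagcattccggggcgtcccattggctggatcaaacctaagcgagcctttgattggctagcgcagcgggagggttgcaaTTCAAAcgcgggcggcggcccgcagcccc
Cdk1: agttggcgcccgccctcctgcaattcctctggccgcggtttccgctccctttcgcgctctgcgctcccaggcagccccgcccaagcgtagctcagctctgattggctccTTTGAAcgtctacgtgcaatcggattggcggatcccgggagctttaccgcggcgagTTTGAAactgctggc

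Chromosome structure genes were lower in cluster 3 as well, with 20 of 24 lower and 1 higher (median -1.05). Top2a, which untangles DNA (chromosome 11, 98992943 to 99024189), had 135 and 137 CPM in cluster 3, against 488 and 510 CPM in cluster 4 (-1.88). Hmgb2, a chromatin protein, averaged 652 ± 16.8 CPM in cluster 3, against 2096 ± 51.9 CPM in cluster 4 (SD over 2 libraries; -1.68), and the histone variants H2afx and H2afz differed by -2.08 and -0.95. The exception was Ncapg2, a condensin subunit named after its value was seen (0.25, lost with DESeq2).

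Tubulins fell in 7 of 8 tested members (median -0.85), with -1.38 for Tubb4b, -0.90 for Tubb5, -1.32 for Tuba1c and -0.83 for Tuba1b. Histone genes fell in 46 of 52 tested members in edgeR and in 34 with DESeq2 (median -1.42), out of 67 measured, and 0 rose with either tool or at an unadjusted p below 0.05 in edgeR. H1f0 had 192 and 164 CPM in cluster 3, against 544 and 552 CPM in cluster 4 (-1.63), Hist1h1c differed by -1.36, Hist1h2bc by -2.11 and H3f3b by -0.69. Histone and tubulin genes have near-identical copies, between which reads can be split, so the values of single members are uncertain. The 3′ kit reads polyadenylated RNA, which most replication-dependent histone mRNAs lack.

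**Figure D3:**
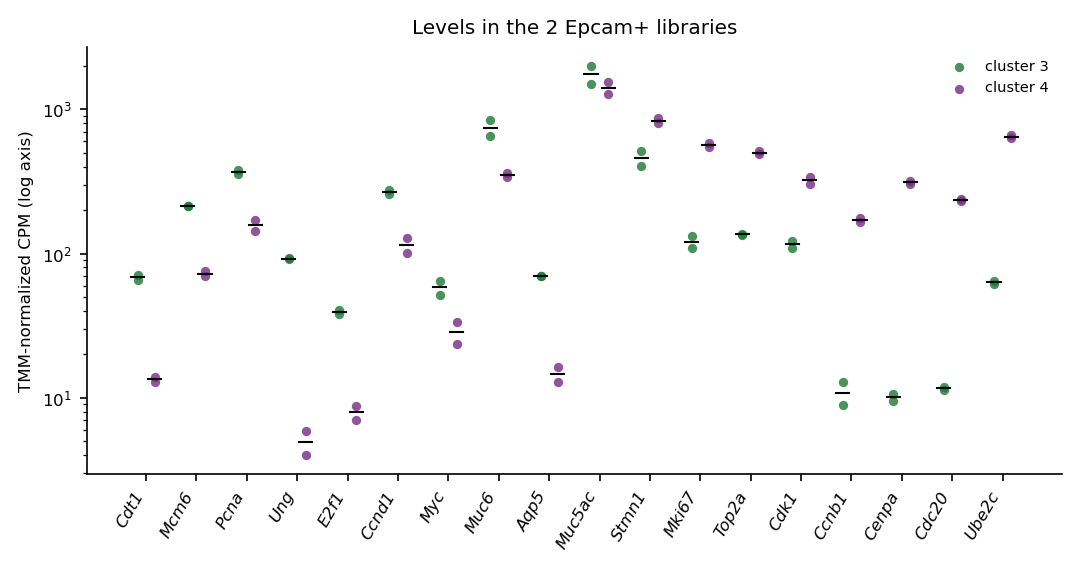
TMM-normalized CPM (y axis, log scale) of 18 genes in cluster 3 (green, left of each pair) and cluster 4 (purple, right), with 1 point per Epcam+ library and a bar at the mean. Muc5ac is the only gene of the plot whose clusters overlap, and Ung has 90.9 and 93.7 CPM in cluster 3 against 4.01 and 5.88 CPM in cluster 4.

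Cells were then compared one by one after each was thinned to 25409 UMIs, which kept 205 and 213 cells of cluster 3 and 174 and 154 cells of cluster 4. A cell of cluster 3 held a median of 91 and 93 UMIs of the 50 replication genes, against 30.5 and 35.5 UMIs in cluster 4. Of the 91 mitosis genes it held a median of 42 and 43 UMIs, against 236.5 and 268 UMIs in cluster 4. Mitosis UMIs outnumbered replication UMIs in 31 of 205 (15.1%, 95% Wilson interval 10.9% to 20.7%) and 30 of 213 cells (14.1%, 10.0% to 19.4%) of cluster 3, and in all 174 and 154 cells of cluster 4. In the pit cells of cluster 2 a cell held a median of 12.5 and 12 replication UMIs, and in the neck cells of cluster 0 it held 13 and 14. The 2 sets differ in size, and mitosis UMIs outnumbered replication UMIs in 62.2% and 54.9% of pit cells. In neck cells the shares were 51.8% and 48.9%.

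Both clusters were spread along the 2 programs rather than uniform. The 10th and 90th percentiles of mitosis UMIs were 18 and 127 in cluster 3 of Epcam+ 1 and 19.2 and 144 in Epcam+ 2, and for replication UMIs in cluster 4 they were 13 and 111.9 in Epcam+ 1 and 13.3 and 118.5 in Epcam+ 2. Cells of cluster 4 with many replication UMIs thus overlap the range of cluster 3 on that axis.

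**Figure D4:**
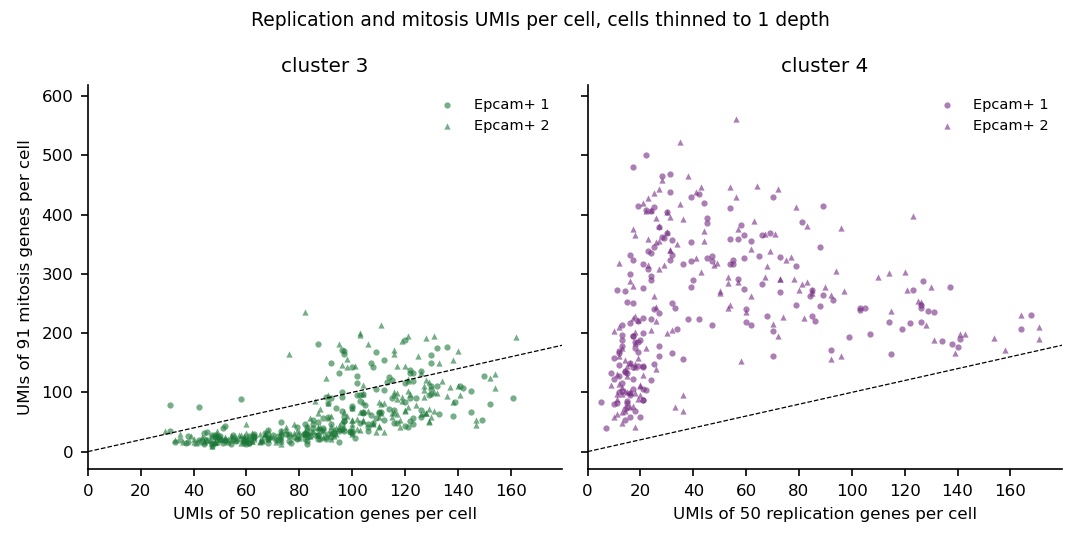
UMIs of the 91 mitosis genes (y axis) against UMIs of the 50 replication genes (x axis) in each cell thinned to 25409 UMIs, for cluster 3 (left) and cluster 4 (right); circles are Epcam+ 1, triangles Epcam+ 2, and the dashed line marks equal numbers. All cells of cluster 4 lie above the line, and 31 of 205 and 30 of 213 cells of cluster 3 do.

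The share of cells with a UMI of Mki67 or Top2a was lower in cluster 3. At 25409 UMIs per cell it was 70.2% (63.7% to 76.1%) and 78.9% (72.9% to 83.8%) in cluster 3, against 99.4% (96.8% to 99.9%) and 99.4% (96.4% to 99.9%) in cluster 4. Without thinning it was 76.0% and 79.1% in cluster 3 and 99.0% and 98.8% in cluster 4. Mature chief cells of cluster 1, thinned alike from medians of 124390.0 and 104380.0 UMIs, gave 1.03% and 0.704%, and 6.50% and 7.82% without thinning, as the background of a cell type that should lack both genes. Ccnb1 was seen in 13.2% and 18.3% of thinned cells of cluster 3, against 93.7% and 90.3% in cluster 4 (19.3% and 23.0%, against 95.3% and 96.0%, without thinning), and in 0 of 194 and 1 of 284 chief cells. Cdt1 was seen in 76.6% and 76.1% in cluster 3, against 16.1% and 18.8% in cluster 4 (87.1% and 86.5%, against 23.3% and 24.9%, without thinning), and in 0 of 194 and 1 of 284 chief cells, where 0 of 194 allows up to 1.55%.

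Cells of cluster 3 without a Mki67 or Top2a UMI, 61 and 45 of the thinned cells, were lower in both programs than the cells with one. Their summed unscaled level of the 50 genes was 2637 and 2540 CPM, against 3875 and 3911 CPM in the cells of cluster 3 with such a UMI. Their mitosis genes summed to 918 and 1032 CPM, against 2875 and 2896 CPM. Lineage genes differed too, with Muc6 at 1291 and 1072 CPM in the cells without such a UMI, against 767 and 642 CPM. Tff1 had 10779 and 13566 CPM, against 22827 and 21812 CPM, while Tff2 and Pga5 were not in 1 order between the libraries. These groups were cut by 2 of the genes compared, so the values are a description. Among cells with a Mki67 or Top2a UMI in both clusters, 1885 genes were higher and 1855 lower in cluster 3, and the median log2 difference was 1.09 for origin licensing and -2.16 for the spindle list, beside 0.92 and -2.34 over all cells.

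Regulators of entry into the cycle were split. Of 11 D-type cyclins, their kinases and CDK inhibitors, 6 rose and 4 fell, beside 18.1% higher and 17.7% lower of all genes tested. Ccnd1, a cyclin of G1 (chromosome 7, 144929931 to 144939925), had 276 and 257 CPM in cluster 3, against 127 and 101 CPM in cluster 4 (1.23 ± 0.049, edgeR adjusted p = 9.7e-22), and Ccnd2 differed by 1.14, Cdk4 by 0.44 and, of genes named after their values were seen, Ccnd3 by 0.51, Cdk6 by 0.64 and Cdkn1c by 0.48. The 4 members that fell are inhibitors of these kinases, while the inhibitor gene Cdkn1c is among those that rose. The log2 differences of these 4 were -0.92 for Cdkn1b, -2.61 for Cdkn2d and, named after their values were seen, -0.89 for Cdkn2c and -2.33 for Cdkn2b. Cdkn2d had 9.54 and 12.3 CPM in cluster 3, against 62.5 and 70.5 CPM in cluster 4. Among 12 p53 targets 3 rose and 1 fell (0 and 1 with DESeq2), beside 18.1% higher and 17.7% lower of all genes tested.

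Myc and the genes of ribosome biogenesis were higher in cluster 3 for 16 of 25 tested members and lower for 2 (median 0.31). Of all genes tested 18.1% were higher and 17.7% lower. DESeq2 called 7 members of the list higher and 1 lower, and without the block 11 were higher and 1 lower. Myc, a transcription factor of growth (chromosome 15, 61985391 to 61990374), had 64.8 and 51.5 CPM in cluster 3, against 33.3 and 23.5 CPM in cluster 4 (1.03 ± 0.08, edgeR adjusted p = 4e-13). The nucleolar genes Gnl3, Nolc1 and Npm1 differed by 0.74, 0.71 and 0.31. Mxd3, a partner of Max named after its value was seen, was lower by more, with 3.00 and 4.21 CPM in cluster 3, against 29.6 and 32.5 CPM in cluster 4 (-3.11).

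The main counts of this paragraph stand beside 18.1% higher and 17.7% lower of all genes tested. Cytosolic ribosomal protein genes rose in 70 of 81 members and fell in 1, but by little, with a median of 0.13 and examples of 0.21 for Rplp1 and 0.25 for Rps27. On library totals without scaling factors 54 rose and 1 fell, and without the block 11 rose and 0 fell. Mitochondrially encoded genes rose in 12 of 13 members (median 0.19), with 0.21 for mt-Co3 and 0.18 for mt-Atp6. The higher mitochondrial share of cluster 3 is counted from mitochondrially encoded genes as well, so it is no separate result. Without the block 4 of these 13 were called. Nuclear genes of oxidative phosphorylation had 5 higher and 22 lower of 75 (median -0.044), with 1 and 5 called without the block, 0 and 3 with DESeq2, and 4 and 32 on library totals. Cholesterol synthesis genes fell in 17 of 18 members (median -0.44), with 8 of 18 called without the block. The sums of 11 of 18 did not overlap, beside 61.1% of all genes tested. Their unscaled total was 2258.5 and 1824 CPM in cluster 3, against 3114 and 2336 CPM in cluster 4. In GFP+ 1 the order was the opposite (3406 CPM against 2471 CPM), and in GFP+ 2 it was the same (2151.5 CPM against 2548 CPM). Sqle, which makes squalene epoxide, had 76.5 and 65.1 CPM in cluster 3, against 125 and 94.0 CPM in cluster 4 (-0.63), and Mvk, Fdps and Hmgcs1 of the same pathway differed by -0.89, -0.40 and -0.39.

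Pit genes differed little between the clusters. Of 10 tested pit genes 3 rose and 2 fell (0 and 1 without the block), with a median of 0.0052. Of all genes tested 18.1% were higher and 17.7% lower. The trefoil peptide gene Tff1 had 21555 and 23178 CPM in cluster 3, against 20796 and 24541 CPM in cluster 4 (-0.02, edgeR adjusted p = 0.47), and Gkn1 and Gkn2, the gastrokines of pit cells, differed by 0.03 (not passing) and 0.05 (adjusted p = 0.021, lost with DESeq2). Muc5ac, the surface mucin gene (chromosome 7, 141788972 to 141819231), averaged 1744.5 ± 337 CPM in cluster 3, against 1408 ± 195 CPM in cluster 4 (SD over 2 libraries; 0.30). Its 4 sums overlap, since Epcam+ 2 was the higher library in both clusters, and the call was lost without the block. Psca, a surface antigen gene, differed by -0.32, with 795 and 785 CPM in cluster 3, against 913 and 1064 CPM in cluster 4, and Foxq1, a transcription factor of pit cells, differed by -0.22. For these genes the sign of Gkn1 and Gkn2 turned in thinned cells (-0.081 and -0.071), and that of Tff1 turned without Epcam+ 2 (0.084). Among cells with a Mki67 or Top2a UMI, Gkn1, Gkn2 and Tff1 were each called higher in cluster 3 by edgeR (0.19, 0.21 and 0.13).

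Neck genes were higher in cluster 3 for 5 of 7 tested members and lower for 1 (median 0.77). Of all genes tested 18.1% were higher and 17.7% lower. Without the block 2 neck genes were higher and 1 lower, and with DESeq2 5 were higher and 0 lower. The sums of 4 of the 7 did not overlap, beside 61.1% of all genes tested. Muc6, the gland mucin (chromosome 7, 141633456 to 141655319), had 842 and 650 CPM in cluster 3, against 363 and 342 CPM in cluster 4 (1.07 ± 0.045, edgeR adjusted p = 3.5e-21). Aqp5, a water channel that marks gland-base stem cells of the antrum (chromosome 15, 99590782 to 99594829), had 69.7 and 69.9 CPM in cluster 3, against 12.9 and 16.4 CPM in cluster 4 (2.26 ± 0.092, adjusted p = 2.2e-21). The pepsinogen gene Pga5 had 447 and 267 CPM in cluster 3, against 261 and 149 CPM in cluster 4 (0.81). Gkn3 had 335 and 160 CPM against 169 and 114 CPM (0.77), so that its clusters overlap. The trefoil gene Tff2 differed by 0.19. Its clusters overlap as well, with 34679 and 29305 CPM, unscaled, in cluster 3 and 30763 and 26828 CPM in cluster 4. Cd44, an adhesion receptor gene named after its value was seen, was the member that fell (-0.63).

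The neck genes were less stable than the cell cycle genes. Muc6, Pga5, Gkn3 and Tff2 lost the call in the fit over all clusters, with and without either library, where Muc6 differed by 0.93 without Epcam+ 1 and by 1.247 without Epcam+ 2. Aqp5 kept its call in every alternative run. The shares of thinned cells with a Muc6 UMI overlapped between the clusters, 69.3% and 59.6% in cluster 3 and 65.5% and 59.1% in cluster 4 (79.4% and 67.4%, and 74.6% and 68.2%, without thinning), while chief cells gave 15.98% and 10.6% (49.5% and 29.3% without thinning). An Aqp5 UMI was seen in 42.4% and 43.2% of thinned cells of cluster 3, against 18.4% and 23.4% in cluster 4 (47.6% and 46.1%, against 24.4% and 26.6%, without thinning), and in 2.58% and 0% of chief cells, where 0 of 284 allows up to 1.06%. Among cells with a Mki67 or Top2a UMI the median of the neck list was 0.36, with 0.78 for Muc6 and 2.06 for Aqp5.

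Both clusters lay between pit and neck cells in Muc6 and Muc5ac. In unscaled CPM, Muc6 had 833 and 638 in cluster 3 and 368 and 345 in cluster 4, against 106 and 74.0 in pit cells and 6068 and 3552 in neck cells. Muc5ac had 1491 and 1944 in cluster 3 and 1289 and 1561 in cluster 4, against 2517 and 2974 in pit cells and 12.7 and 36.6 in neck cells. The level of Muc6 in cluster 3 was higher than in cluster 4 in both libraries, and that of Muc5ac was too.

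**Figure D5:**
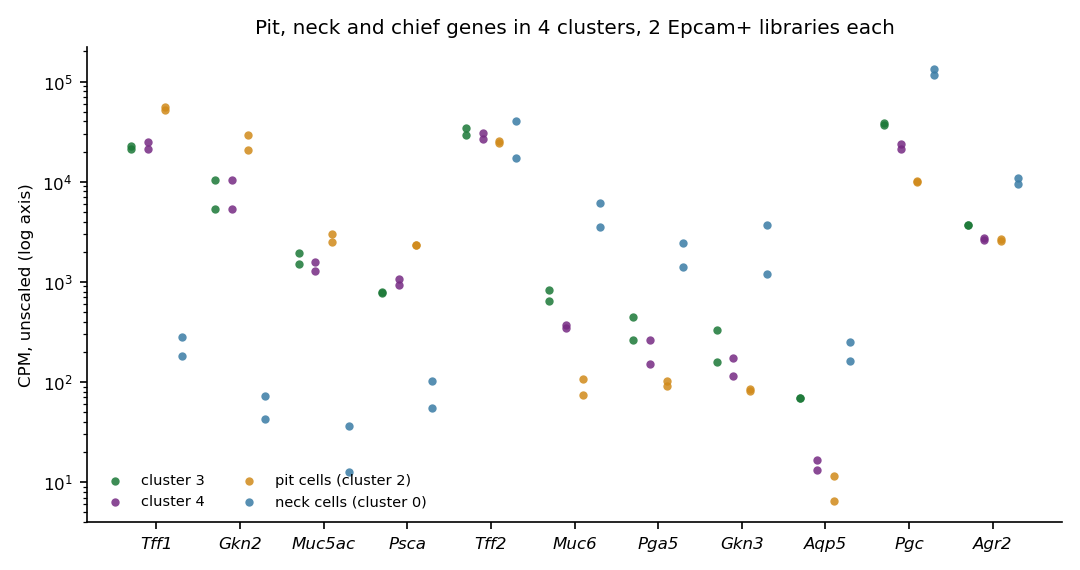
Unscaled CPM (y axis, log scale) of pit, neck and chief genes in cluster 3, cluster 4, the pit cells of cluster 2 and the neck cells of cluster 0, with 1 point per Epcam+ library. For Muc6, Pga5, Aqp5 and Pgc clusters 3 and 4 lie between pit and neck cells, and for Tff1, Gkn2, Muc5ac and Psca they lie below pit cells and above neck cells.

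Secretory maturation genes were higher in 10 and lower in 3 of 21 tested members (median 0.33). Of all genes tested 18.1% were higher and 17.7% lower. Agr2, a protein disulfide isomerase of mucin folding, had 3755.5 and 3790.4 CPM in cluster 3, against 2592.9 and 2683.9 CPM in cluster 4 (0.52). Spdef, a transcription factor of mucous cells, differed by 0.78 and A4gnt, which makes the gland mucin glycan, by 0.67, while Gcnt3, another glycosyltransferase gene, was lower (-0.33). Of these, Agr2 and Gcnt3 lost the call in the fit over all clusters.

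Of 10 tested chief genes 4 rose and 1 fell (median 0.62), beside 18.1% higher and 17.7% lower of all genes tested. Pgc, a pepsinogen gene, had 39220.0 and 37803 CPM in cluster 3, against 23668 and 21237 CPM in cluster 4, and its difference was 0.73 within Epcam+ 1 and 0.83 within Epcam+ 2 (0.78 in the fit, with the call lost without either library). Its SE of 0.012 is smaller than the gap between these values, since edgeR draws the spread of a gene towards that of all genes. Furin and Tmed6 were higher by 0.74 and 0.68. Single cells held much of the UMIs of some chief genes. Clps, colipase, had 2589 and 3394 CPM in cluster 3 and 4768.5 and 849 CPM in cluster 4, and 1 cell held 78.8% of its UMIs in cluster 4 of Epcam+ 1 and 1 cell 61.5% in cluster 3 of Epcam+ 2. Clps (0.55) and Pla2g1b (0.36) did not pass (edgeR adjusted p = 0.11 and 0.24) and had the opposite sign without Epcam+ 2, with -0.85 and -0.86. Both passed in some other settings, such as RLE size factors (edgeR adjusted p = 1.68e-61 and 3.36e-26), where the differences were 0.54 and 0.35 and edgeR took the spread of every gene from the trend alone, and DESeq2 called neither (adjusted p = 0.923 and 0.949). Cblif, intrinsic factor, was higher by 0.76, but by 1.94 without Epcam+ 1 and by 0.00378 without Epcam+ 2, and DESeq2 did not call it. The member that fell, Try4 (-2.84, named after its value was seen), owed 96.3% of its UMIs in cluster 4 of Epcam+ 1 to 1 cell, and its sign turned without Epcam+ 1 (0.57) and without doublets (0.27).

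Reported progenitor and stem cell markers gave 2 higher and 4 lower of 15 tested, beside 18.1% higher and 17.7% lower of all genes. Stmn1, a microtubule-destabilizing protein gene, had 405 and 511 CPM in cluster 3, against 803 and 866 CPM in cluster 4 (-0.88), and Iqgap3, a scaffold protein gene, had 6.002 and 8.65 CPM against 44.4 and 47.2 CPM (-2.65). Lrig1 (-0.42) and Lgr4 (-0.19, named after its value was seen) were lower, and Sox9 (0.18) and Prom1 (0.27) higher, all 4 without a call by DESeq2. Gastric lineage transcription factors gave 0 higher (2 at an unadjusted p below 0.05) and 8 lower of 20 in edgeR, and 0 and 3 in DESeq2 (median -0.15). Ehf, an Ets factor of epithelia, had 41.5 and 45.7 CPM in cluster 3, against 93.5 and 81.6 CPM in cluster 4 (-1.01), and Gata4 and Pdx1 differed by -0.36 and -0.99 (Pdx1 was named after its value was seen).

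Signalling and stress genes were mixed, and their counts stand beside 18.1% higher and 17.7% lower of all genes tested. Immediate-early genes had 9 higher and 7 lower of 19 (median 0.071). Socs3, an inhibitor of cytokine signalling, had 108 and 103 CPM in cluster 3, against 55.8 and 37.6 CPM in cluster 4 (1.17) and the phosphatase gene Dusp1 differed by 0.44, while Fos and Jun differed by -0.24 and -0.22. Heat shock genes had 5 higher and 5 lower of 12, with 1.21 for the small heat shock gene Hspb1. The unfolded protein and integrated stress response list had 4 higher and 4 lower of 16, with -0.30 for the chaperone Hsp90b1. EGFR ligands and feedback genes had 2 higher and 4 lower of 14, with 0.33 for Errfi1. Notch pathway genes had 2 higher and 1 lower of 7 (0 and 1 with DESeq2), and the lower gene was Notch1 itself (-0.72). Keratins, claudins and adhesion genes had 2 higher and 4 lower of 12, with -0.32 for Epcam, the sort marker.

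Markers of other cell types were low in both clusters. The 8 parietal markers summed to 49.8 and 40.2 CPM in cluster 3, against 157 and 55.9 CPM in cluster 4 (unscaled), and 4 of 7 tested were lower and 1 higher. Atp4a, of the proton pump, had 12.0 and 11.4 CPM in cluster 3, against 64.4 and 14.5 CPM in cluster 4 (-1.72), and differed by -0.34 without Epcam+ 1. The 12 endocrine markers summed to 89.8 and 38.95 CPM in cluster 3, against 28.2 and 36.7 CPM in cluster 4, with 2 of 5 tested higher and 0 lower in edgeR (0 lower at an unadjusted p below 0.05) and none called by DESeq2. Chga, a granule protein gene, had 50.7 and 6.60 CPM in cluster 3, and 1 cell held 84.8% of its UMIs in Epcam+ 1, against 6.61 and 4.48 CPM in cluster 4. Its log2 difference of 2.36 became 0.39 without doublets and 0.56 without Epcam+ 1. Ghrl, the gene of ghrelin, differed by 0.39 (adjusted p = 0.014 by edgeR). The 8 tuft markers summed to 10.9 and 14.3 CPM in cluster 3, against 18.8 and 17.2 CPM in cluster 4, and the 1 tested, Avil, was lower (-0.54). The 6 squamous markers summed to 4.78 and 3.24 CPM in cluster 3, against 1.98 and 34.4 CPM in cluster 4, and the 1 tested did not pass. Markers of red blood cells, endothelium, immune cells, and fibroblasts or muscle summed to at most 0.646 CPM in any sum and none was tested, with Ptprc and Pecam1 at 0, since cells with either were removed by the authors.

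In the GFP+ libraries, which the main test did not use, the order of the 2 programs was the same. Their cells were clustered by expression together with the Epcam+ cells, so this order is no independent check. The licensing list summed to 1655 and 1835 CPM (unscaled) in cluster 3 of GFP+ 1 and GFP+ 2, against 765 and 654 CPM in cluster 4, and the spindle list to 376.5 and 386 CPM, against 2999 and 2050 CPM. With 17 and 10 cells of cluster 3 and 11 and 8 of cluster 4 these are values without a test. Muc6 was not in 1 order there, with 564 and 1145 CPM in cluster 3, against 1548 and 47.7 CPM in cluster 4. Pga5 and Cd44 were not in 1 order either, while Tff2, Gkn3 and Aqp5 were higher in cluster 3 in both GFP+ libraries. The neck list summed to 31543 and 15348 CPM in cluster 3, against 26474 and 7130 CPM in cluster 4.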

How the data were processed

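Clusters 3 and 4 were compared over 2 Epcam+ libraries. Cell Ranger 3.0.2 with mm10 made the deposited counts, which are whole UMI numbers for 17712 genes (21 with no count) in 4449 cells. The authors kept cells of 1500 to 8000 genes with at most 15% of mitochondrial reads and with Ptprc and Pecam1 at 0, and clustered the cells on 2000 variable genes after log-normalization. The cluster and library of each cell were taken from their annotation, and sorted cells of 2 mice were combined. No column of per-sample values was left unused (0).

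UMIs were summed per library and cluster and tested with edgeR 4.0.16 in R 4.3.3 (TMM, filterByExpr, quasi-likelihood, two-sided, Benjamini-Hochberg at 0.05). The library was a block, because the cluster 3 and cluster 4 sums of 1 number come from the same library. The median prior degrees of freedom were 33.8, so that SEs lean on the spread of all genes. SEs are the log2 difference over the root of F. DESeq2 1.42.0 was an alternative, as were other scalings and filters and no block. Another put all clusters with at least 20 cells in 1 fit (9 clusters). Within that fit the cluster 3 and cluster 4 sums of each library were left out in turn, while its other clusters stayed. Further alternatives were all 4 libraries, cells thinned, and cells with a Mki67 or Top2a UMI. Scrublet doublets were also removed (scanpy 1.11.5, 6 of 463 cells of cluster 3 and 5 of 366 of cluster 4). Scripts were tested on simulated data. Thinning was to 25409 UMIs per cell without replacement. Intervals are Wilson intervals at 95% (scipy 1.17.1), and a count of 0 allows 3 counts. In the series 8 cells share a barcode sequence with another library, 0 of them among the cells compared.

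Named are Mki67, Top2a, Pcna, Mcm6, Stmn1 and Bmi1, the 12 largest rises and falls past the threshold at a mean of 50 CPM or more with the same sign in both libraries, up to 4 most abundant and 4 most different members (at 20 CPM or more) of each of 40 lists, and the most abundant marker of other cell types. Some of these are given as counts only, and some are not reported here. The members and lists were chosen with earlier results of these data known. Promoter sequences are RefSeq's, and gene positions are those of GENCODE vM21.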

Additional observations from a re-analysis of the deposited data

How the results depend on the processing

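Of 154 genes named, 149 were called, and 87 of these kept the call and the sign in every alternative in which they could be tested. The 2071 higher and 2033 lower genes became 1180 and 1156 with no replicate block, 427 and 513 with DESeq2, 1261 and 1070 with all clusters in 1 fit, 1036 and 900 with all 4 libraries, and 290 and 333 at a log2 difference of at least 1. Among the named genes, 26 calls were lost with no replicate block and 28 with DESeq2. When 1 library was left out, counts ranged between 341 and 420 higher and between 372 and 381 lower. That fit has no residual degrees of freedom between libraries of 1 cluster and assumes that the lone sum varies like the other clusters. The 7 remaining alternatives stayed within 1.5 times. In cells that were not thinned, 98.9% of cluster 4 had a Mki67 or Top2a UMI, against 99.4% when thinned. The sign turned for Clps (-0.85), Pla2g1b (-0.86) and Tff1 (0.084) without replicate 2, against 2.00, 1.62 and -0.079 without replicate 1, for Try4 without replicate 1 (0.57, against -4.19 without replicate 2) and without doublets (0.27), for Gkn1 on library totals (-0.0078), without replicate 1 (-0.017, against 0.12 without replicate 2), with all 4 libraries (-0.18) and in thinned cells (-0.081), for Gkn2 with all 4 libraries (-0.18) and in thinned cells (-0.071), and in cells with a Mki67 or Top2a UMI for Rrm2 (0.073) and Tff1 (0.13). The cause was not tested. With RLE size factors the prior degrees of freedom were infinite, so that p-values there rest on the trend over genes and not on a gene's own spread. With 2 libraries per cluster, differences of low genes and small differences of abundant genes rest most on the spread borrowed from other genes.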
